A study of Mus musculus with 27 samples.

Results

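The inflammasome and pyroptosis genes Nlrp3, Aim2, Nlrc4, Pycard, Casp1, Casp4, Gsdmd and Il18 were followed in the brains of mice infused with human antibodies against the neuronal surface protein IgLON5. These 8 genes were found in the deposited count table by the Ensembl identifier that carries each symbol in the GENCODE M21 mouse annotation, out of 55487 genes in the table, and all 8 were among the 20271 genes that passed the count filter. Male C57Bl/6J wild-type mice, 8 weeks old, received 1 of 3 infusates through an osmotic pump into the right lateral ventricle for 14 days at 0.25 μl/h, and RNA was sequenced from hippocampus and cortex of the side opposite to the cannula. The infusates were α-IgLON5#1, autoantibodies purified from a patient's plasma (label IgLON5), a control IgG (label mIgG, here pCtrl) and PBS, and no group carried a genetic change. The submitters' protocol describes the control as a human monoclonal IgG, whereas the study's methods for the animal experiment describe IgG from healthy serum, so its origin is not settled here. There were 27 libraries from 14 mice, taking the number in each label as the mouse: hippocampus with 5 PBS, 4 pCtrl and 4 α-IgLON5#1 libraries, and cortex with 5 PBS, 5 pCtrl and 4 α-IgLON5#1 libraries.

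Inflammasomes are protein platforms that assemble in the cytosol, above all of myeloid cells, when a sensor meets a danger or microbial signal. NLRP3 responds to membrane and ion disturbance, AIM2 binds cytosolic DNA, and NLRC4 acts with NAIP proteins on bacterial proteins. The adaptor ASC, encoded by Pycard, links a sensor to caspase-1 (Casp1), which matures the cytokines IL-1β and IL-18 and cuts gasdermin D (Gsdmd) into a membrane pore, the step that ends in the lytic death called pyroptosis. Mouse caspase-11, encoded by Casp4, binds cytosolic lipopolysaccharide and cuts gasdermin D directly. In the brain, microglia are the best known site of this machinery, and the level of Nlrp3 and Casp4 transcripts, unlike that of several other components, is known to rise with inflammatory priming. Transcript counts report only this level and say nothing on assembly, cleavage or pore formation.

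In GRCm38 coordinates, the sensors were Nlrp3 (ENSMUSG00000032691.14) at chr11:59541568-59566956 on the plus strand, Aim2 (ENSMUSG00000037860.15) at chr1:173350879-173466040 on the plus strand and Nlrc4 (ENSMUSG00000039193.9) at chr17:74425438-74459142 on the minus strand. The adaptor was Pycard (ENSMUSG00000030793.4) at chr7:127989708-127993867 on the minus strand. The caspases were Casp1 (ENSMUSG00000025888.6) at chr9:5298517-5307265 on the plus strand and Casp4 (ENSMUSG00000033538.13) at chr9:5308828-5336783 on the plus strand, which are neighbours. The pore gene was Gsdmd (ENSMUSG00000022575.5) at chr15:75862327-75867408 on the plus strand and the cytokine Il18 (ENSMUSG00000039217.13) at chr9:50554827-50581840 on the plus strand. Gene bodies of Aim2, Il18 and Nlrc4 overlap other annotated genes, and only Pycard shares exon sequence with one.

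The upstream sequences of Casp4, Nlrp3, Casp1 and Il18 are shown because the first 2 had the largest fold changes, Casp1 lies next to Casp4 on the same strand of chromosome 9, and Il18 was the member that varied least. Each run holds the 250 bases before a RefSeq start (build GRCm38.p6, plus strand, 5′ to 3′), at chr9:5308599-5308848 for Casp4, chr11:59541319-59541568 for Nlrp3, chr9:5298267-5298516 for Casp1 and chr9:50554450-50554699 for Il18. Capitals mark matches on either strand to 4 motifs: the ISRE, TTCNNNGAA (GAS), GAGGAA (the core bound by PU.1) and the NF-κB motif.
Casp4: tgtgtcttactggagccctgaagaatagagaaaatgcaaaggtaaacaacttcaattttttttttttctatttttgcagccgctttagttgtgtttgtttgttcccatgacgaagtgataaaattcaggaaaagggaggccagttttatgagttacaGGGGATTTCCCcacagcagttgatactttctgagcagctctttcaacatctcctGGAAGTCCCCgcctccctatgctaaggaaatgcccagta
Nlrp3: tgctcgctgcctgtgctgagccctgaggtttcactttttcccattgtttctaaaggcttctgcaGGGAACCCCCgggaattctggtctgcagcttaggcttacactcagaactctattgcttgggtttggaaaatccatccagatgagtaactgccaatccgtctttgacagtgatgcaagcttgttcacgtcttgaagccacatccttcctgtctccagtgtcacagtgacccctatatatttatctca
Casp1: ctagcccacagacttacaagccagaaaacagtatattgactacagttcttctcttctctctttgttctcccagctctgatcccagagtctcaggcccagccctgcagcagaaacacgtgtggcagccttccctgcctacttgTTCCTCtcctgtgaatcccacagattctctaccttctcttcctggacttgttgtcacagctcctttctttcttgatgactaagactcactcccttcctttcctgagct
Il18: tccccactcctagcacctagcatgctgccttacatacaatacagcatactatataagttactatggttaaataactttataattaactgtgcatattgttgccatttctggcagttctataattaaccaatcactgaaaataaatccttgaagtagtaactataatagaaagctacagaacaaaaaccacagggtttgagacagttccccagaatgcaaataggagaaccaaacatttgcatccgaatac

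The Casp4 window held 3 places that matched the NF-κB motif, of which a pair overlapped, the Nlrp3 window held 1, the Casp1 window held 1 PU.1 core, and the Il18 window held none of the 4 motifs. Among 32841 upstream windows of the same length, 7.25% held the NF-κB motif, 23.3% the PU.1 core, 7.02% the GAS and 2.98% the ISRE. A second RefSeq start of Nlrp3 had 3 PU.1 cores, Aim2 had 2, Pycard had 1 and Nlrc4 had none. RefSeq entries were found for 7 of the 8 members, the exception being Gsdmd. A match describes letters in a window and not a bound site.

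The libraries held 19385642 to 58550621 counts, and in hippocampus the α-IgLON5#1 libraries, with 19428512 to 32776892, were shallower than the pCtrl libraries, with 39479753 to 52212204. Levels are given as CPM, the counts of a gene relative to the size of its library after TMM scaling. The labels name neurons as the cell type, but markers of other cells were abundant in all libraries: 9 neuronal markers summed to 6702 to 9651 CPM, 6 oligodendrocyte markers to 1691 to 4580 CPM and 6 astrocyte markers to 2143 to 3742 CPM. The hippocampal PBS library of mouse 74 stood apart, with 3889 CPM of 5 pituitary markers, and the calls and the tissue differences that use it are also given without it. In bulk tissue, more cells of a type and more RNA per cell cannot be told apart.

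In PBS mice the members spanned a wide range of levels per exon length (CPM per kilobase, mean ± SD, n = 5). In the hippocampus Il18 stood highest, at 16.7 ± 1.47, followed by Casp1 at 1.58 ± 0.486, Aim2 at 1.27 ± 0.213 and Gsdmd at 1.19 ± 0.283, which did not differ from each other beyond their spread. Pycard followed at 0.553 ± 0.038 and Nlrp3 at 0.238 ± 0.0464, and at the bottom Nlrc4 at 0.161 ± 0.0323 and Casp4 at 0.121 ± 0.0222 lay within their spread of each other. The cortex had nearly the same order, from Il18 at 15.8 ± 1.31 to Casp4 at 0.105 ± 0.0438, with Gsdmd before Aim2. In the hippocampus of α-IgLON5#1 mice Casp4 reached 0.744 ± 0.487 and Nlrp3 0.824 ± 0.561 (n = 4), while Il18 was at 17.5 ± 0.628 and Nlrc4, at 0.226 ± 0.0504, was last.

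Between the tissues of PBS mice, no member differed by more than a fold of 2 at an edgeR adjusted p under 0.05, whereas 2.70% of all genes tested were called higher in cortex and 2.87% lower. By adjusted p alone 2 members differed, in opposite directions, as did 14.1% and 12.7% of all genes, and DESeq2 also called none past the fold. Casp1 was 1.61-fold higher in cortex (log2 fold change 0.69, SE 0.21, edgeR adjusted p = 0.0153), and Aim2 was lower in cortex (log2 fold change -0.55, SE 0.16, edgeR adjusted p = 0.0122). The Aim2 libraries of the tissues did not overlap, as for 8.61% of all genes that were lower in cortex, and those of Casp1 did. Without the library of mouse 74 the Casp1 adjusted p was 0.051, while Aim2 was at -0.59 (adjusted p = 0.0140), and without the hippocampal library of mouse 14 the Aim2 adjusted p was 0.0508.

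**Figure D1:**
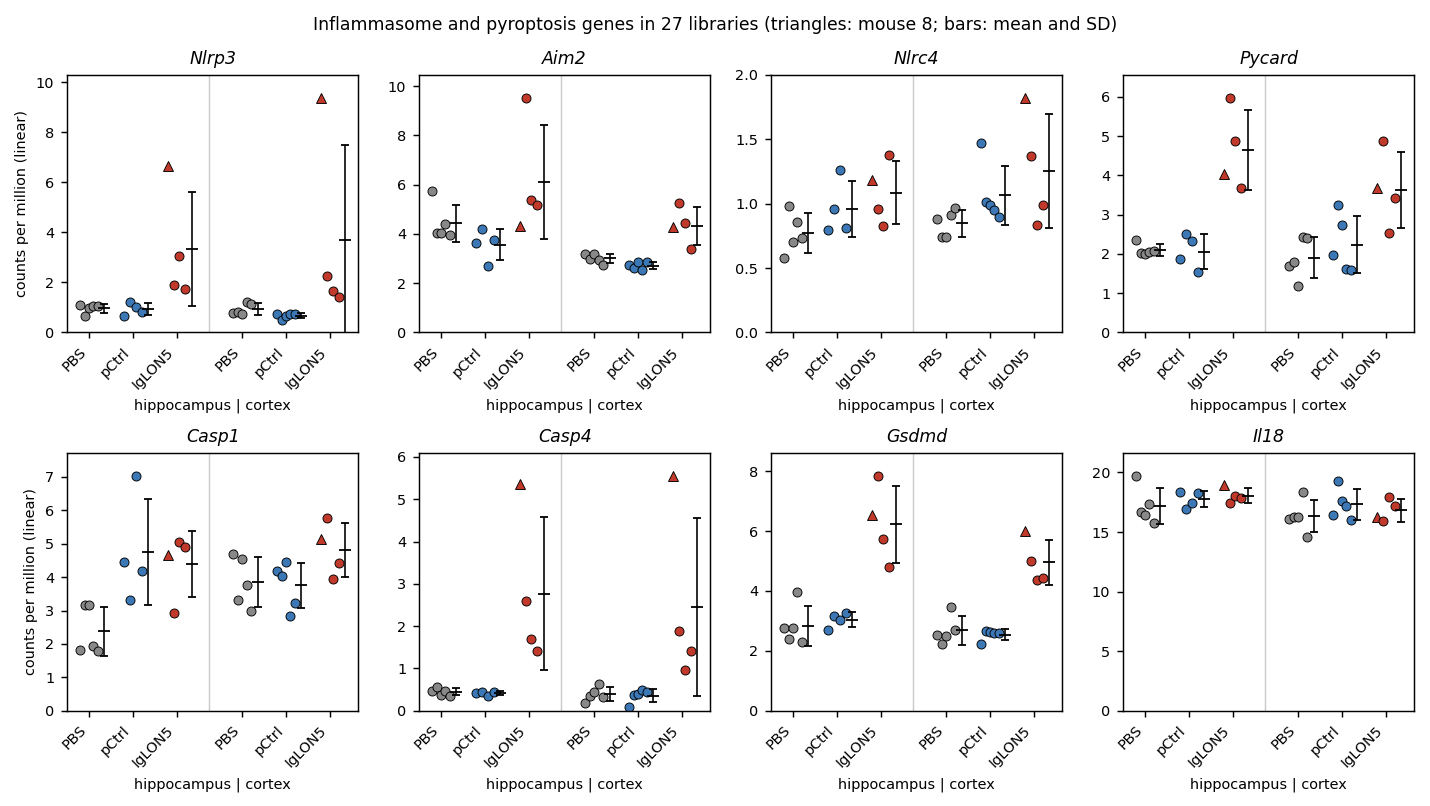
Level of each member in each of the 27 libraries, in CPM on a linear axis from 0. Points are libraries (triangles, mouse 8), and the bar beside each group is the mean with 1 SD, which for cortical Nlrp3 runs below 0. Nlrp3 and Casp4 were highest in mouse 8 in both tissues, and Il18 kept between 14.5 and 19.7 CPM throughout.

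The main comparison asked which transcripts differed between mice given α-IgLON5#1 and mice given pCtrl. In the hippocampus 4 of the 8 members were called higher and none lower, against 2.21% of all genes tested called higher and 0.237% lower, and the called members were Casp4, Nlrp3, Pycard and Gsdmd. They cover the non-canonical caspase, a sensor, the adaptor and the pore. In the cortex Casp4 and Nlrp3 were called higher and none lower, against 2.14% and 0.0247% of all genes. By adjusted p alone, Aim2 was added in hippocampus (5 of 8, against 4.23% of all genes), and Gsdmd and Aim2 in cortex (4 of 8, against 3.01%). The median log2 fold change over the 8 members was 0.89 in hippocampus and 0.68 in cortex, beside medians over all genes tested of 0.00 and -0.01. A gene was called at an edgeR adjusted p under 0.05 with a fold above 2.

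Among the sensors, Nlrp3 in hippocampus measured 1.75, 1.92, 3.06 and 6.64 CPM in α-IgLON5#1 mice. In pCtrl mice it measured 0.674, 0.835, 1.02 and 1.20 CPM, and in PBS mice 0.640, 0.968, 1.06, 1.07 and 1.09 CPM. Every α-IgLON5#1 library lay above every control library, and mouse 8 stood well above the others. The rise over pCtrl was 3.53-fold (95% interval 1.83 to 6.80, log2 fold change 1.82, SE 0.46, edgeR adjusted p = 0.0165), and that over PBS was 3.46-fold (adjusted p = 0.0122). Without the hippocampal library of mouse 8 the calls were lost against pCtrl (log2 fold change 1.27, adjusted p = 0.126) and PBS (1.24, adjusted p = 0.163), as was that against pCtrl without pCtrl mouse 10 (1.69, adjusted p = 0.0646). With the libraries of mouse 8 left out of both tissues, whose groups share 1 estimate of the spread, the log2 fold changes were 1.27 and 1.24 again and both calls were kept (adjusted p = 0.00164 and 0.000901).

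In cortex Nlrp3 measured 1.43, 1.67, 2.27 and 9.37 CPM in α-IgLON5#1 mice. The pCtrl cortices measured 0.479, 0.659, 0.720, 0.732 and 0.737 CPM, and the PBS cortices 0.739, 0.783, 0.798, 1.15 and 1.20 CPM. Again no α-IgLON5#1 library overlapped the controls, and the highest was that of mouse 8. The difference from pCtrl was 5.43-fold (95% interval 2.85 to 10.3, edgeR adjusted p = 0.00120), and that from PBS was 3.90-fold (adjusted p = 0.00588). Without the cortex of mouse 8 the log2 fold change against pCtrl fell from 2.44 to 1.39 and stayed past the threshold (adjusted p = 0.0240), while that against PBS fell from 1.97 to 0.91 (adjusted p = 0.280, or 0.0325 with both libraries of mouse 8 left out), under the fold threshold. These values rested on 9 to 345 reads per library.

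Aim2, the DNA sensor, measured 4.33, 5.19, 5.36 and 9.52 CPM in hippocampi of α-IgLON5#1 mice and 2.71, 3.62, 3.73 and 4.21 CPM in those of pCtrl mice. The groups did not overlap, and mouse 9 held the highest value. The 1.69-fold difference passed the adjusted p but not the fold threshold (log2 fold change 0.76, SE 0.18, edgeR adjusted p = 0.0108). In cortex the 1.59-fold difference also passed the adjusted p alone (log2 fold change 0.67, SE 0.18, edgeR adjusted p = 0.0287). Against PBS the differences were smaller and did not pass in either tissue, at 1.37-fold in hippocampus (adjusted p = 0.160) and 1.43-fold in cortex (adjusted p = 0.147). Against pCtrl the adjusted p rose above 0.05 in hippocampus without the library of mouse 9 (log2 fold change 0.48, adjusted p = 0.0840) or pCtrl mouse 37 (0.65, adjusted p = 0.0640) and with only the groups compared in the fit (0.76, adjusted p = 0.146). In cortex it did so without the library of mouse 8 or 9 or pCtrl mouse 10, 11 or 37 (log2 fold changes 0.56 to 0.67, adjusted p 0.0626 to 0.116).

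Nlrc4, the sensor that works with NAIP proteins, ranged from 0.827 to 1.38 CPM in hippocampi of α-IgLON5#1 mice, 0.797 to 1.26 CPM in those of pCtrl mice and 0.580 to 0.984 CPM in those of PBS mice. The 3 groups overlapped, and the fold change against pCtrl was 1.14 (95% interval 0.817 to 1.59, edgeR adjusted p = 0.690). In cortex it was 1.16-fold (95% interval 0.854 to 1.59, adjusted p = 0.694). These intervals include a decrease as well as a rise. Over PBS the fold changes were 1.39 in hippocampus (95% interval 1.01 to 1.93, unadjusted p = 0.0453, adjusted p = 0.311) and 1.46 in cortex (95% interval 1.07 to 1.998, unadjusted p = 0.0191, adjusted p = 0.330), with libraries that overlapped, and did not pass the adjusted p.

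Pycard, which encodes the adaptor ASC, measured 3.67, 4.04, 4.87 and 5.97 CPM in hippocampi of α-IgLON5#1 mice. The pCtrl hippocampi measured 1.55, 1.86, 2.33 and 2.50 CPM and the PBS hippocampi 1.99, 2.03, 2.05, 2.07 and 2.35 CPM. All α-IgLON5#1 libraries exceeded all controls, by 2.23-fold over pCtrl (95% interval 1.60 to 3.11, log2 fold change 1.16, SE 0.23, edgeR adjusted p = 0.00242) and by 2.20-fold over PBS (adjusted p = 0.00120). Without the library of mouse 9 the log2 fold change over PBS was 0.99, just under the fold threshold (adjusted p = 0.0114). The cortical values of α-IgLON5#1 mice, 2.52, 3.42, 3.67 and 4.87 CPM, overlapped those of pCtrl mice, 1.60 to 3.25 CPM, with a 1.63-fold difference (edgeR adjusted p = 0.0842, DESeq2 adjusted p = 0.0387). Over PBS the cortical difference was 1.89-fold (log2 fold change 0.92, edgeR adjusted p = 0.0136). It was called without the library of mouse 16 or PBS mouse 38 or 74 (log2 fold changes 1.02 to 1.06), and missed the adjusted p without mouse 9 (0.75, adjusted p = 0.0858) or PBS mouse 33 (0.79, adjusted p = 0.0543) and with only the groups compared (0.94, adjusted p = 0.0897). Pycard shares exon sequence with Gm45205 on the opposite strand, and since the counting was not stated to use strand, reads from the pair cannot be told apart.

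Of the caspases, Casp4, the lipopolysaccharide sensor, differed between groups in both tissues. In hippocampus it measured 1.404, 1.69, 2.59 and 5.36 CPM in α-IgLON5#1 mice. It measured 0.357, 0.429, 0.432 and 0.442 CPM in pCtrl mice and 0.353, 0.381, 0.475, 0.478 and 0.558 CPM in PBS mice. The lowest α-IgLON5#1 library was well above the highest control, and the fold change over pCtrl was 6.46 (95% interval 3.29 to 12.7, log2 fold change 2.69, SE 0.47, edgeR adjusted p = 0.000622). Over PBS it was 5.94 (adjusted p = 0.000302).

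In cortex Casp4 measured 0.952, 1.42, 1.88 and 5.54 CPM in α-IgLON5#1 mice, 0.0939, 0.373, 0.4003, 0.432 and 0.491 CPM in pCtrl mice and 0.188, 0.330, 0.355, 0.437 and 0.631 CPM in PBS mice. The groups did not overlap here either, with a fold change over pCtrl of 6.77 (95% interval 3.50 to 13.1, log2 fold change 2.76, SE 0.46, edgeR adjusted p = 0.000410) and over PBS of 6.25 (adjusted p = 0.000439). Casp4 stayed called in each of these 4 comparisons whichever single library was left out, with log2 fold changes from 1.85 to 3.03, the lowest without the cortical library of mouse 8. The control values rested on 3 to 34 reads per library.

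Casp1, the canonical caspase, was called in neither tissue. In hippocampus it measured 1.79, 1.81, 1.93, 3.17 and 3.17 CPM in PBS mice. The pCtrl hippocampi measured 3.33, 4.17, 4.46 and 7.02 CPM and the α-IgLON5#1 hippocampi 2.93, 4.68, 4.90 and 5.06 CPM. The pCtrl libraries lay above all PBS libraries, a difference that missed the adjusted p (0.0563) and is described with the control groups, while the α-IgLON5#1 libraries overlapped those of PBS. The α-IgLON5#1 hippocampi did not differ from pCtrl beyond the spread (0.935-fold, 95% interval 0.674 to 1.30, edgeR adjusted p = 0.854). Over PBS the α-IgLON5#1 hippocampi were 1.85-fold higher (log2 fold change 0.89, SE 0.22, adjusted p = 0.0162), past the adjusted p but not the fold threshold. It was called without the library of mouse 9 or PBS mouse 32 or 33 (log2 fold changes 1.01 to 1.03), and the adjusted p was 0.0592 without that of mouse 74, 0.0542 without mouse 8, 0.0564 without mouse 17 and 0.0720 with only the groups compared. In cortex all 3 groups overlapped, within 2.84 to 5.77 CPM, and the α-IgLON5#1 mice differed from pCtrl by 1.28-fold (95% interval 0.936 to 1.74, adjusted p = 0.469).

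The pore gene Gsdmd measured 4.79, 5.73, 6.55 and 7.83 CPM in hippocampi of α-IgLON5#1 mice. It measured 2.70, 3.02, 3.18 and 3.27 CPM in those of pCtrl mice and 2.28, 2.40, 2.76, 2.76 and 3.98 CPM in those of PBS mice. No α-IgLON5#1 library overlapped the controls, and the spread within groups was small beside the difference. The fold change over pCtrl was 2.03 (95% interval 1.61 to 2.57, log2 fold change 1.02, SE 0.16, edgeR adjusted p = 0.000205) and over PBS 2.19 (adjusted p = 1.63e-05). In cortex it was 1.95 over pCtrl (95% interval 1.56 to 2.44, adjusted p = 0.000302) and 1.85 over PBS (adjusted p = 0.000621). Gsdmd sits at the fold threshold: the hippocampal call was lost without the library of mouse 8, 9 or pCtrl mouse 10, with both libraries of mouse 8 left out, or with genes of at least 1 count in total tested, with log2 fold changes of 0.89 to 0.995 at adjusted p up to 0.00197. The call against PBS was lost without the library of mouse 9 (0.993), and a cortical call over pCtrl was gained without that of mouse 16 or 17, at 1.01 to 1.02.

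Il18, the cytokine substrate of caspase-1, was the steadiest member. Its hippocampal levels were 17.4 to 18.9 CPM in α-IgLON5#1 mice, 16.9 to 18.4 CPM in pCtrl mice and 15.8 to 19.7 CPM in PBS mice. Its cortical levels were 15.9 to 17.98, 16.0 to 19.3 and 14.5 to 18.3 CPM in the same order of groups. All groups overlapped, and the fold change of α-IgLON5#1 over pCtrl was 1.02 in hippocampus (95% interval 0.916 to 1.13, edgeR adjusted p = 0.892) and 0.973 in cortex (95% interval 0.881 to 1.07, adjusted p = 0.849). With 309 to 1016 reads per library, these intervals were the narrowest among the members.

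**Figure D2:**
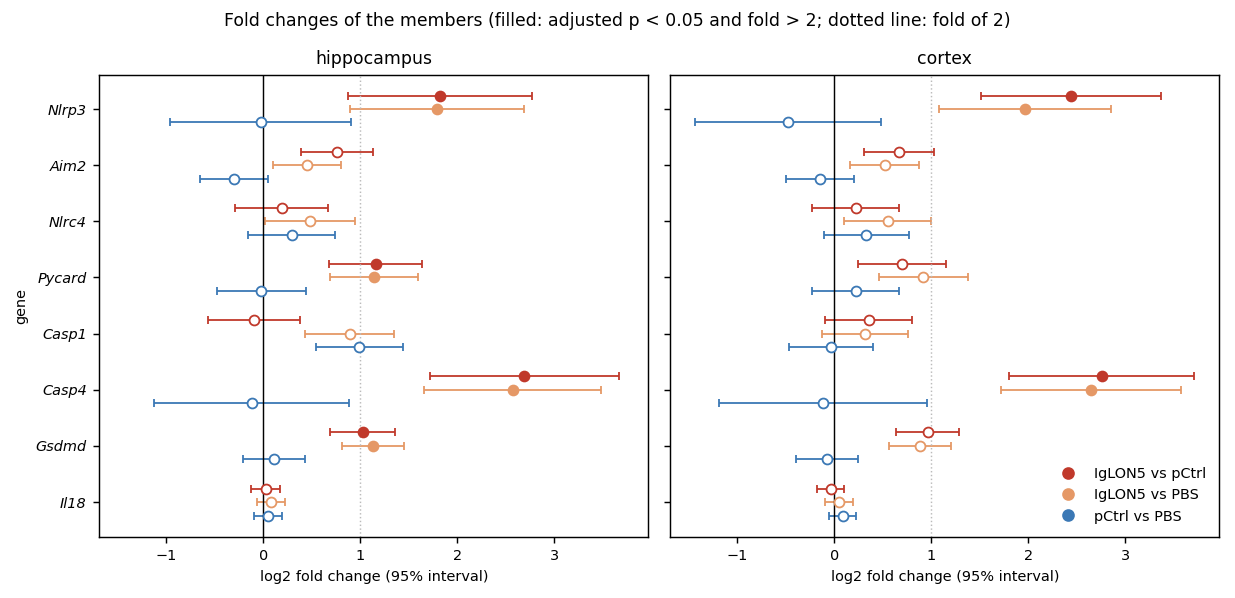
Log2 fold change of each member (horizontal axis, with its 95% interval) for 3 comparisons in hippocampus (left) and cortex (right), with filled points for called members. Casp4 and Nlrp3 were filled in both tissues against both controls, Pycard and Gsdmd in hippocampus only, and no member was filled for pCtrl against PBS.

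Measured against PBS instead, which is the same α-IgLON5#1 libraries set beside other controls, the calls fell on the same symbols: Casp4, Nlrp3, Pycard and Gsdmd in hippocampus (4 of 8, against 2.56% of all genes called higher) and Casp4 and Nlrp3 in cortex (2 of 8, against 2.24%). Without the hippocampal library of mouse 74 the calls were the same 4, with log2 fold changes over PBS of 2.49 for Casp4, 1.83 for Nlrp3 (adjusted p = 0.0268), 1.13 for Pycard and 1.06 for Gsdmd. By adjusted p alone Casp1 joined them in hippocampus (5 of 8, against 3.81%), and Pycard and Gsdmd in cortex (4 of 8, against 2.97%). The numbers of members whose α-IgLON5#1 libraries all lay above all libraries of the control were 5 in hippocampus and 4 in cortex against pCtrl, and 4 and 5 against PBS. The shares of all genes with such separation were 6.68%, 3.68%, 4.49% and 3.14% in that order. All 4 α-IgLON5#1 mice carried label numbers from 8 to 17, whereas the control groups also held numbers from 32 to 75, and the labels do not say what the numbers follow. Within numbers 8 to 17, with 2 pCtrl hippocampi and 3 pCtrl cortices, the log2 fold changes were 2.64 and 3.08 for Casp4, 1.81 and 2.54 for Nlrp3, 1.08 for hippocampal Pycard and 1.07 for hippocampal Gsdmd. None of these passed the adjusted p, the lowest being 0.0599 for Gsdmd. This subset has fewer libraries and also lacks the controls numbered 32 to 75, and which of these the loss of calls follows was not tested.

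The pCtrl and PBS groups tested whether infusion of an unrelated IgG moved these genes. No member was called in either tissue, with edgeR or with DESeq2, against 0.0493% of all genes called higher in hippocampus and 0.00% in cortex. At an unadjusted p under 0.05 there was 1 member in hippocampus, Casp1, and none in cortex, beside 14.0% and 8.14% of all genes. Separation of all libraries was seen for hippocampal Casp1, higher in pCtrl mice like 1.87% of all genes, and for cortical Nlrp3, lower in pCtrl mice like 0.834% of all genes (log2 fold change -0.47, SE 0.47, edgeR adjusted p = 0.834). Hippocampal Casp1 was 1.98-fold higher in pCtrl mice (95% interval 1.45 to 2.70, log2 fold change 0.99, SE 0.22), with an edgeR adjusted p of 0.0563 and a DESeq2 adjusted p of 0.00394. It was called without PBS mouse 33 or pCtrl mouse 15 or 75, at log2 fold changes of 1.04 to 1.13 and adjusted p of 0.0101 to 0.0409, and it dropped to 0.74 (adjusted p = 0.514) without pCtrl mouse 37. The hippocampal library of mouse 37 held both the highest Casp1 of all and, among hippocampal libraries, the highest sum of 5 cortex-enriched markers, 230.7 CPM against a group median of 147.0 CPM and 327.8 to 605.8 CPM in cortices, and without PBS mouse 74 the value was 0.90 (adjusted p = 0.205). The part of tissue makeup in the Casp1 difference was not tested. In cortex Casp1 did not differ between the controls beyond its spread (0.975-fold, 95% interval 0.724 to 1.31), and the difference between tissues in this contrast was 1.02 on the log2 scale (SE 0.30, unadjusted p = 0.00231, adjusted p = 0.393), or 0.93 without the hippocampal library of mouse 74 (adjusted p = 0.704).

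Whether α-IgLON5#1 acted differently on the members in the 2 tissues was tested as an interaction. No member passed, over either control and with either tool, against 0.00% of all genes over pCtrl in either direction and, over PBS, 0.00493% with a larger and 0.00% with a smaller change in hippocampus. None passed over PBS without the hippocampal library of mouse 74 either, and at an unadjusted p under 0.05 the number was also 0, beside 10.6% of all genes for the contrast with pCtrl and 3.32% for that with PBS. The calls of Pycard and Gsdmd in hippocampus and not in cortex are therefore not shown to differ between tissues: the hippocampal minus cortical log2 fold change over pCtrl was 0.46 for Pycard (SE 0.32, adjusted p = 0.646) and 0.06 for Gsdmd (SE 0.23, adjusted p = 0.959). For Casp4 it was -0.07 (SE 0.66) and for Nlrp3 -0.62 (SE 0.64), with intervals too wide to call the tissues alike.

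Within the α-IgLON5#1 group the members did not peak in the same mouse. Mouse 8 had the highest Nlrp3 and Casp4 in both tissues and the highest Gsdmd in cortex. Mouse 9 had the highest Pycard and Aim2 in both tissues and the highest Gsdmd in hippocampus, and also the highest summed level of 10 pan-myeloid markers (593.3 CPM in hippocampus and 403.2 CPM in cortex). Mouse 8 had the highest sums of B cell, T cell, monocyte and neutrophil markers in both tissues. With 4 mice this is a description of these libraries.

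**Figure D3:**
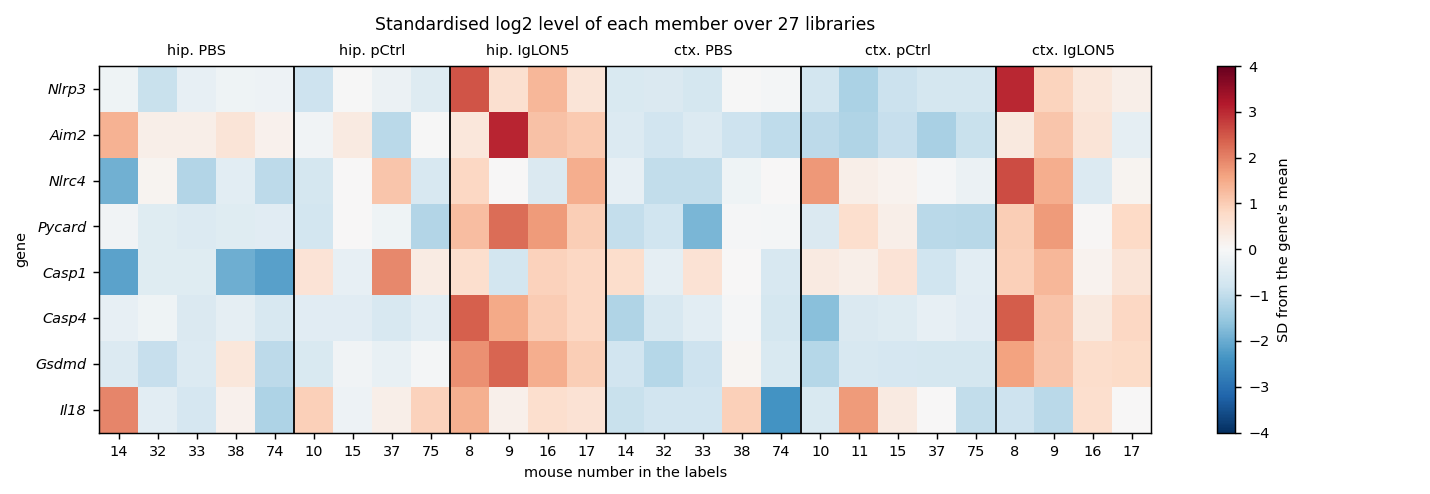
Level of each member (rows) in each library (columns, by group and mouse number), as SDs from that gene's mean log2 CPM over the 27 libraries. Casp4, Nlrp3, Gsdmd and Pycard were above their mean in all α-IgLON5#1 columns, by as little as 0.042 SD for Pycard in the cortex of mouse 16 and 0.231 SD for Nlrp3 in that of mouse 17, Casp1 was low in 3 hippocampal PBS columns, and Il18 showed no block of colour by group.

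Across the 27 libraries, which share the differences between groups and depth, the Pearson r of log2 levels was 0.907 between Casp4 and Gsdmd, 0.894 between Nlrp3 and Casp4, and 0.825 between Pycard and Gsdmd. After subtracting each group's mean, these were 0.569, 0.672 and 0.371. Il18 had r from -0.152 to 0.259 with the other members and Casp1 from -0.171 to 0.586, the latter with Nlrc4. The 5 genes outside the lists whose log2 level followed the mean standardised level of the 8 members most closely were Apobec3 (r = 0.965, n = 27 libraries), Tmem176b (0.961), Clic1 (0.957), Myo1g (0.957) and H2-D1 (0.957). These coefficients describe the pattern over libraries.

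The other genes of the pathway were taken from 5 lists by role, chosen with results of these data known, with 51 genes of which 45 passed the count filter. The filter was 10 counts in 4 or more libraries, and 4 of the 45 (Il18r1, Il18rap, Il1rn and Ifi208) reached it only with the α-IgLON5#1 libraries, so counts are given over the other 41, as all 8 members reached it in the control libraries alone. Over pCtrl, 8 of the 41 were called higher in hippocampus (2.21% of all genes) and 13 in cortex (2.14%), and none lower. By adjusted p alone 12 were higher in hippocampus (4.23% of all genes) and 2 lower (2.78%), and 16 were higher in cortex (3.01%). By role, the called genes in hippocampus were 5 of 9 further sensors, 0 of 13 activation and licensing genes, 0 of 5 executioners, 2 of 6 cytokines and receptors and 1 of 8 inhibitors. In cortex the numbers were 2, 5, 0, 3 and 3. Of these cortical calls, those of Naip2, Gbp2, Gbp3, Gbp5, Gm12250, Ripk3 and Il1b were lost without the cortical library of mouse 8. Over PBS 12 of the 41 were called in hippocampus (2.56% of all genes) and 13 in cortex (2.24%), with 4 and 5 of the activation and licensing genes among them, and no gene of the 41 passed the interaction of tissue with α-IgLON5#1 over either control. The median log2 fold change of the 41 over pCtrl was 0.71 in hippocampus and 0.54 in cortex.

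Among further sensors, Naip2, a partner of NLRC4, rose in hippocampus from 1.52 ± 0.341 to 4.14 ± 1.09 CPM (log2 fold change 1.43, SE 0.24, edgeR adjusted p = 0.000449) and in cortex by 1.25 on the log2 scale (adjusted p = 0.00127). The cortical value was 0.93, under the fold threshold, without the cortical library of mouse 8 and also without both its libraries. Its relative Naip5 rose by 1.08 in hippocampus (adjusted p = 0.00222), and the sensors Nlrp1a and Nlrp1b rose by 1.34 (adjusted p = 0.0104) and 1.27 (adjusted p = 0.00229). Naip5 fell just under the fold threshold without the hippocampal library of mouse 16 or pCtrl mouse 75, and Nlrp1b without that of mouse 9, at 0.978 to 0.996, and Nlrp1b missed the adjusted p with only the groups compared (1.28, adjusted p = 0.0505). In cortex these 3 were not called, with log2 fold changes of 0.77 for Naip5 (adjusted p = 0.0351), 0.56 for Nlrp1a (adjusted p = 0.394) and 0.81 for Nlrp1b (adjusted p = 0.0606). The Naip and Nlrp1 genes are related copies among which counting may split reads, which was not measured, so values of single copies are uncertain. Zbp1, which senses Z-form nucleic acid, rose by 1.89 in hippocampus (adjusted p = 0.0348, lost without the hippocampal library of mouse 8, 9 or pCtrl mouse 10 or 37, at 1.16 to 1.96, without both libraries of mouse 8, at 1.16, and with only the groups compared, at 1.88) and by 3.20 in cortex (adjusted p = 0.000788), or 2.43 without the cortical library of mouse 8 (adjusted p = 0.0119).

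Of the other cytokines of the family, Il1b and Il1a were called higher in both tissues and Il33 was not called in either. Il1b, the other substrate of caspase-1, measured 1.52, 2.27, 2.53 and 22.6 CPM in hippocampi of α-IgLON5#1 mice against 0.291 ± 0.163 CPM in pCtrl mice (log2 fold change 4.56, SE 1.00, edgeR adjusted p = 0.00559). In cortex it measured 0.976, 2.03, 3.18 and 42.0 CPM against 0.442 ± 0.195 CPM (log2 fold change 4.76, SE 0.92, adjusted p = 0.00186). The high value in each tissue came from mouse 8, and without that library the log2 fold changes were 2.79 (adjusted p = 0.0923) and 2.20 (adjusted p = 0.129). With both libraries of mouse 8 left out they were again 2.79 and 2.20, and both calls were kept (adjusted p = 7.91e-05 and 0.000962). With only the groups compared in the fit the cortical call was lost (4.78, adjusted p = 0.0553). Il1a, which signals through the same receptor, rose by 2.26 in hippocampus (adjusted p = 0.000975) and 2.34 in cortex (adjusted p = 0.000407), or 1.60 without the cortical library of mouse 8 (adjusted p = 0.00483). Il1rn, the receptor antagonist, had 0 to 3 reads per control library and 5 to 660 in α-IgLON5#1 libraries, and since it reached the count filter through the latter its levels are given with no test. It measured 0.229, 0.368, 0.620 and 9.499 CPM in α-IgLON5#1 hippocampi and 0.119, 0.233, 1.12 and 17.9 CPM in cortices, against at most 0.106 CPM in any control library, and the highest value in each tissue was that of mouse 8. Il33, an alarmin of astrocytes and oligodendrocytes, measured 35.8 to 42.3 CPM in hippocampi of α-IgLON5#1 mice and 41.7 to 52.7 CPM in those of pCtrl mice (log2 fold change -0.35, SE 0.12, adjusted p = 0.0850). Il18bp, which binds and blocks IL-18, was at 10.2 ± 1.61 CPM in hippocampus against 8.70 ± 0.392 CPM (log2 fold change 0.24, SE 0.13, adjusted p = 0.282).

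The 5 activation and licensing genes called in cortex were Gbp2, Gbp3, Gbp5, Gm12250 and Ripk3, of which the first 4 encode interferon-inducible GTPases, with log2 fold changes of 1.73 to 2.83 there. Mouse 8 was highest for each, and without its cortical library the log2 fold changes were 1.03 to 1.71 and none was called (adjusted p 0.0656 to 0.398). In hippocampus theirs were 0.23 to 2.27 over pCtrl (adjusted p 0.0502 to 0.790), or -0.02 to 1.14 without the library of mouse 8 (adjusted p 0.278 to 0.992). Over PBS the 4 GTPase genes were called in hippocampus, where mouse 8 was also highest for each, and no fit without it is given. The tissues are not shown to differ (interaction over pCtrl, adjusted p 0.337 to 0.901). These 5 are named after their values were seen. The other activators and executioners were named whatever their values. Casp8, which can cut gasdermins and mature IL-1β, passed the adjusted p but not the fold threshold in hippocampus (log2 fold change 0.82, SE 0.17, edgeR adjusted p = 0.00390) and cortex (0.57, SE 0.16, adjusted p = 0.0488, up to 0.289 with single libraries left out). The ATP-gated channel P2rx7, a trigger of NLRP3, measured 16.0 ± 3.06 CPM in hippocampus against 11.0 ± 0.332 CPM (log2 fold change 0.54, SE 0.10, adjusted p = 0.00115, or 0.0684 with only the groups compared). Nek7, the NLRP3 partner kinase, and Gsdme, a gasdermin cut by caspase-3, were lower in hippocampus, both with a log2 fold change of -0.26 (adjusted p = 0.0271 and 0.0390), like 2.78% of all genes that were lower by adjusted p alone. These adjusted p were 0.121 and 0.162 without the hippocampal library of mouse 8, 0.131 and 0.149 without that of mouse 9, and 0.163 for both with only the groups compared. Ninj1, which ruptures the membrane after pore formation, was at 13.6 ± 1.998 against 13.4 ± 1.39 CPM in hippocampus (log2 fold change 0.03, SE 0.14, adjusted p = 0.942). In cortex P2rx7 was at 0.24 on the log2 scale (SE 0.10, adjusted p = 0.205), and neither it nor Nek7, Gsdme, Ninj1 or Il18bp passed there, with log2 fold changes of -0.06 to 0.35 and adjusted p of 0.121 to 0.892.

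**Figure D4:**
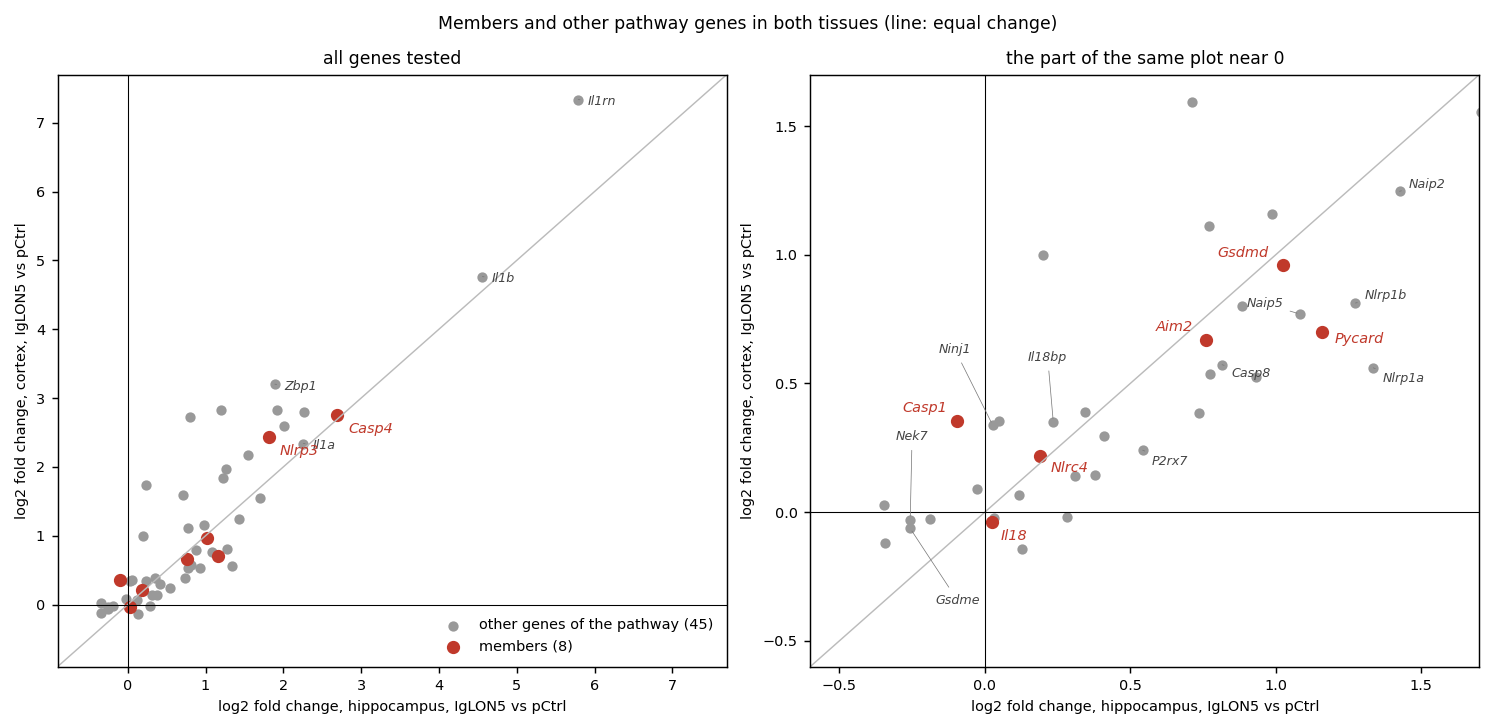
Log2 fold change of α-IgLON5#1 over pCtrl in hippocampus (horizontal axis) and cortex (vertical axis) for the 8 members (red) and the other 45 pathway genes past the count filter (grey), in full on the left and near 0 on the right, with a line of equal change. Il1rn, Il18r1, Il18rap and Ifi208 are drawn without a test and not ranked, as they reached the filter only with the α-IgLON5#1 libraries. Among the others Il1b lay farthest out and was highest in mouse 8, while Il18, Nek7 and Gsdme lay close to 0 in both tissues.

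Pan-myeloid markers were higher in α-IgLON5#1 mice too. Of 10 pan-myeloid markers 8 were called higher in hippocampus and 6 in cortex, against 2.21% and 2.14% of all genes, and 10 and 9 passed the adjusted p, against 4.23% and 3.01%. Their summed level was 189.8 to 222.6 CPM in pCtrl hippocampi and 314.8 to 593.3 CPM in α-IgLON5#1 hippocampi, and 187.9 to 236.1 CPM against 295.0 to 403.2 CPM in cortices. The 10 markers of homeostatic microglia had none called, with 5 past the adjusted p in hippocampus and 0 in cortex, and summed to 275.8 to 317.9 CPM in pCtrl and 338.6 to 568.1 CPM in α-IgLON5#1 hippocampi. Of the 4 B cell markers that reached the count filter in control libraries alone 3 were called in hippocampus and 2 in cortex, and all 8 listed gave sums of 1.02 to 1.67 CPM in pCtrl and 3.72 to 10.7 CPM in α-IgLON5#1 hippocampi. Of 3 such monocyte markers 0 were called in hippocampus and 1 in cortex, with hippocampal sums of the whole list that overlapped (179.4 to 201.3 against 106.0 to 245.2 CPM). The other listed monocyte markers, Ly6c2, Plac8 and Chil3, reached the filter only with the α-IgLON5#1 libraries. These counts therefore do not cover them, nor do the sums single them out. Of 3 T cell markers that reached it in control libraries alone 1 was called in hippocampus and 0 in cortex.

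Neutrophil markers gave no call among 5 such, with sums of 3.34 to 8.73 CPM in pCtrl and 2.08 to 10.4 CPM in α-IgLON5#1 hippocampi. In cortices the sums were 2.36 to 6.39 CPM in pCtrl and 1.98 to 17.7 CPM in α-IgLON5#1 mice, highest in mouse 8. Ly6g, a defining one, was at 0 in all α-IgLON5#1 cortices, and no other neutrophil marker of the list was. No marker of the myeloid, microglial, B cell, T cell or monocyte lists was at 0 in every library of a group. Of 6 astrocyte markers Gfap alone was called, higher in both tissues, and the 6 summed to 2934 to 3742 CPM in α-IgLON5#1 and 2483 to 2757 CPM in pCtrl hippocampi, and to 2143 to 3442 and 2157 to 2386 CPM in cortices. Of 8 border macrophage markers Ms4a7 was called higher and Lyve1 lower in both tissues, with hippocampal sums of 6.196 to 38.4 against 21.8 to 33.5 CPM. No neuronal marker was called, and Tubb3 and Stmn2 were lower in hippocampus by adjusted p (log2 fold changes -0.34 and -0.29). The part of these cell types in the members' differences was not tested.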

How the data were processed

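RNA of hippocampus and cortex was sequenced as paired-end, poly(A)-selected stranded libraries. The authors aligned reads to GRCm38 with STAR (version 1.4.0 in the submitters' processing notes) and deposited raw counts per gene. The counting program, annotation and strand setting are not given in the sources used here. All columns of the table were matched to samples. Gene symbols came from GENCODE M21, which matched 55227 of 55487 identifiers without version.

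From the deposited counts, a gene was kept when 4 or more libraries reached 10 counts, and kept genes were tested with edgeR 4.0.16 (R 4.3.3) by the quasi-likelihood test, with TMM scaling, a term for each of the 6 groups over 27 libraries and Benjamini-Hochberg adjustment over all genes tested. A call needed an adjusted p under 0.05 and a fold above 2, following the thresholds of the study, whose own test was DESeq2. Here DESeq2 1.42.0 served as an alternative, beside other scalings, count filters, subsets of libraries, single libraries left out and, for differences between tissues only, the label number as a block. Intervals are at the 95% level. Levels are CPM of the TMM effective library size, and correlations used log2(CPM + 0.1). The tests were checked on simulated counts for the hippocampal comparison with pCtrl only. Counts were drawn independently for each library, so effects shared by the tissues of a mouse, or an outlying mouse, were not part of that check. No pair of libraries within a group agreed within sampling noise (over 48 pairs, the lowest ratio of chi-square to its degrees of freedom was 4.44). Nothing but the label number ties a library to a mouse, and p-values measure the spread between these libraries.

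The members, the gene lists and the genes named were chosen with earlier results of these data known. Of the other pathway genes, up to 8 with the smallest adjusted p among those called in hippocampus over pCtrl were named, plus Il1b, Il18bp, Gsdme, Casp8, Ninj1, Nek7 and P2rx7 whatever their values. The interaction of tissue with pCtrl over PBS, the fits without mouse 8 in either tissue, the values of 5 further pathway genes without it, and the counts over genes reaching the filter in control libraries alone were added after the data were seen.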

Additional observations from a re-analysis of the deposited data

Results flagged for a closer look

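In 8 of the 48 member and group pairs tested, 1 library lay far from the others of its group by Dixon's criterion, which chance alone flags in about 1 of 20 groups. Nlrp3 in the cortex of α-IgLON5#1 mouse 8 was at 9.37 CPM, with the nearest library at 2.27 CPM. The other 7 were in control groups. In PBS hippocampi, Nlrp3 was low in mouse 32 at 0.640 CPM (nearest 0.968 CPM), Gsdmd was high in mouse 38 at 3.98 CPM (nearest 2.76 CPM), and mouse 14 was high for Pycard at 2.35 CPM (nearest 2.07 CPM) and for Aim2 at 5.73 CPM (nearest 4.39 CPM). In pCtrl hippocampi Casp4 was low in mouse 37, at 0.357 CPM (nearest 0.429 CPM). In pCtrl cortices mouse 10 was low for Gsdmd at 2.22 CPM (nearest 2.59 CPM) and high for Nlrc4 at 1.47 CPM (nearest 1.01 CPM).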

How the results depend on the processing

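With DESeq2 and with RLE size factors the numbers of members called equalled those given, in each comparison. Requiring at least 10 counts in every library left 2 members called in hippocampus over pCtrl and 2 over PBS, and 0 and 0 in cortex, since Nlrp3 and Casp4 were then not tested. Without the fold threshold there were 4 in cortex over pCtrl, 4 over PBS and 2 between the tissues of PBS mice. Fitting only the groups compared left 1 in cortex over PBS, and hippocampal Nlrp3 over pCtrl missed the threshold (log2 fold change 1.81, edgeR adjusted p = 0.0587). Within label numbers 8 to 17 there were 0 over pCtrl in either tissue, where 49 genes were called higher and 1 lower in hippocampus and 9 higher in cortex, against 448, 48 and 433 with all libraries. Without the libraries of mouse 8 in either tissue 3 members were called in hippocampus over pCtrl (not Gsdmd, at 0.994), 4 over PBS, 2 in cortex over pCtrl and 1, Casp4, over PBS. With genes of at least 1 count in total there were 3 in hippocampus over pCtrl (not Gsdmd, at 0.986). With single libraries left out the number ranged from 2 to 4 in hippocampus over pCtrl and 3 to 5 over PBS, from 2 to 3 in cortex over pCtrl and 1 to 3 over PBS, and from 0 to 1 for pCtrl over PBS in hippocampus. Apart from members that a filter left untested, the causes of these shifts were not tested.

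Reversed signs were seen only for log2 fold changes near 0 that were not called. With genes of at least 1 count in total, hippocampal Il18 was at -0.0105 and Ninj1 at -0.00909. Within numbers 8 to 17, hippocampal Casp1 was at 0.18 and Ninj1 at -0.0279. Without mouse 8 in either tissue, Ninj1 in hippocampus was at -0.0801 and Nlrc4 in cortex at -0.0247. With single libraries left out, Casp1 ranged from -0.24 to 0.15 in hippocampus over pCtrl and from -0.12 to 0.0514 for cortical pCtrl over PBS, Ninj1 from -0.0801 to 0.0777 in hippocampus, and in cortex over pCtrl Il18 from -0.0728 to 0.00036, Nlrc4 from -0.0236 to 0.37, Gsdme from -0.10 to 0.0012 and Nek7 from -0.0751 to 0.00077.

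The label number, read here as the mouse, taken as a block gave 0 members for the interactions and 0 between the tissues of PBS mice. These comparisons had no member called without the block either, and comparisons of infusates within a tissue were not fitted with it. Over 13 numbers the correlation of same-numbered libraries' deviations from their group means ran from -0.0644 to 0.505 (median 0.216), 8 were above 0.1, and 8 were highest with their own number.

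All-gene calls moved over 1.5 times elsewhere too: DESeq2 called 47 genes higher and 24 lower for pCtrl over PBS in hippocampus, against 10 and 3.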
